A study of Homo sapiens with 6 samples.

Results

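The genes described here are 30 genes of sterol and fatty acid synthesis in human embryonic stem cells depleted of DDX18, an RNA helicase of the DEAD-box family. They are 5 enzymes of the mevalonate arm, 3 of isoprenoid diphosphate synthesis, 3 from squalene to lanosterol, 8 from lanosterol to cholesterol, 4 genes of SREBP control and sterol transfer, and 7 enzymes of fatty acid synthesis and desaturation. They were found by symbol, the list does not hold every enzyme of these pathways, and all 30 had a row among the 17929 genes of the deposited table. All 30 also passed the filter on low values of at least 1 CPM in 2 libraries, where CPM are reads per 1e+06 of the scaled library size.

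RNA was sequenced in 6 libraries, 3 from each of the established human embryonic stem cell lines H9 and HES2. Each line gave 1 library with shLuc, the control hairpin against luciferase, 1 with the hairpin shDDX18#1 and 1 with the hairpin shDDX18#3. All libraries, controls included, came from cells infected with a hairpin virus, taken on day 4, and maintained on irradiated mouse embryonic fibroblasts in a medium with Knockout serum and bFGF. No label speaks of separate cultures, so every p-value below measures the spread between these samples.

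Cells build cholesterol from acetyl-CoA through mevalonate, the isoprenoid diphosphates, squalene and lanosterol, and they build palmitate from the same acetyl-CoA through malonyl-CoA. Both routes are under the transcription factors SREBP-1 and SREBP-2, encoded by SREBF1 and SREBF2, which are held in the endoplasmic reticulum while sterols are plentiful and are cleaved and sent to the nucleus when sterols run low. SREBPs bind sterol regulatory elements in promoters, usually beside sites of the factors NF-Y and Sp1, and human embryonic stem cells are known for active fatty acid synthesis.

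Promoter sequences are shown for 4 genes that fell with DDX18 knockdown (SREBF2, HMGCS1, FDPS and SCD) and for 2 that did not pass the test (MSMO1 and NSDHL), because the same short motifs stand in both kinds. Each is the 250 bases before the start of the gene, 5′ to 3′ on the strand of the gene, from RefSeq on GRCh38.p14: SREBF2 at chr22:41832855-41833104 (+), HMGCS1 at chr5:43313413-43313662 (-), FDPS at chr1:155308616-155308865 (+), SCD at chr10:100346983-100347232 (+), MSMO1 at chr4:165327419-165327668 (+) and NSDHL at chrX:152830813-152831062 (+). Capitals mark matches on either strand to TCACNCCAC (a core of the sterol regulatory element, where N is any base), CCAAT (the NF-Y box) and GGGCGG (the core of the GC box, which Sp1 binds).
SREBF2: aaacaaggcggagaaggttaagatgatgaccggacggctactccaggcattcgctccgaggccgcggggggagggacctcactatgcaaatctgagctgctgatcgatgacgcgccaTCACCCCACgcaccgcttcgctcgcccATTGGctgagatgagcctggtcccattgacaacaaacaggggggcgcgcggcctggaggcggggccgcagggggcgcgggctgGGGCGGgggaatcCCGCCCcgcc
HMGCS1: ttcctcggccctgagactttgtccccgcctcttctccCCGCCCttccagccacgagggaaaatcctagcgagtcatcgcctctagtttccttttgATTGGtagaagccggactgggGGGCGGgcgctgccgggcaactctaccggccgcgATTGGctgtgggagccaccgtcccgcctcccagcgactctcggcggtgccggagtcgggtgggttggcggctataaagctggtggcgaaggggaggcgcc
FDPS: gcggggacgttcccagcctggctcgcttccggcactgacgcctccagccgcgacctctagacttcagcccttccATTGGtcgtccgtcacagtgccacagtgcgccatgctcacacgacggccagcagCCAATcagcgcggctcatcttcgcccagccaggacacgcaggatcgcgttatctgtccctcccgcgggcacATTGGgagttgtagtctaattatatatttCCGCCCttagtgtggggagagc
SCD: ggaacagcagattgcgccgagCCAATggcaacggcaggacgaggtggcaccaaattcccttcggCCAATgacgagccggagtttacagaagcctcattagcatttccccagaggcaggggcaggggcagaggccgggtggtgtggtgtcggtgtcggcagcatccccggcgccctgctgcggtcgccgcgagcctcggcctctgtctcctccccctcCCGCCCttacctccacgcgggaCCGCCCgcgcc
MSMO1: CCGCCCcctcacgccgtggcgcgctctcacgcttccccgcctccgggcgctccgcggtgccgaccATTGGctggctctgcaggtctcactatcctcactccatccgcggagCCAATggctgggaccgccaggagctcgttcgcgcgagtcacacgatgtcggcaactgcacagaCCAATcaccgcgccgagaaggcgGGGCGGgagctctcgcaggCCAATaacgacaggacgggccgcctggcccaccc
NSDHL: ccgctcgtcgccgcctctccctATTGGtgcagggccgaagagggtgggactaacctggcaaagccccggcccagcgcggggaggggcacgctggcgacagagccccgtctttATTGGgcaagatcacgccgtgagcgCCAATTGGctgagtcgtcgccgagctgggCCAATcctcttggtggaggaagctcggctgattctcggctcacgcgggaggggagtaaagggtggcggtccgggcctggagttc
SREBF2 was the only member with TCACNCCAC, which ended 124 bases before its start. In NSDHL a CCAAT match on each strand shares bases, so 1 run of capitals there holds a pair of matches. Of the 30 genes, 26 had a promoter entry, and ACAT2, FDFT1, SQLE and FASN had none. TCACNCCAC stood in 1 of these 26 windows and in 0.875% of the 27305 genes with a window. CCAAT stood in 17 of 26 and in 33.0% of all genes. GGGCGG stood in 23 of 26 and in 42.3% of all genes. Among the 11 windows of genes that fell with knockdown, 6 held CCAAT and 10 held GGGCGG. Among the 15 windows of genes that did not pass, 11 held CCAAT and 13 held GGGCGG. These matches describe letters in a window and do not show that a factor binds there.

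DDX18 itself stood at 153, 19.2 and 47.3 CPM with shLuc, shDDX18#1 and shDDX18#3 in H9 cells and at 161, 39.3 and 60.4 CPM in HES2 cells, an order of the 3 hairpins that all values below keep. That left 12.6% to 37.6% of the level of the line's own shLuc. Libraries held from 2668179 to 4271741 reads, so 1 read is worth 0.224 to 0.408 CPM. Other cell-type markers moved with the knockdown: the summed level of 12 embryonic stem cell markers was 5787 to 5992 CPM with shLuc and 1988 to 3052 CPM with knockdown, 25 fibroblast and feeder markers took 0.351% to 0.718% of reads with shLuc and 2.31% to 9.47% with knockdown, and 12 endoderm and liver markers summed to 169 to 209 CPM and 483 to 1239 CPM. In these lists 9 of 12 genes passed the test as lower, 16 of 25 as higher and 9 of 12 as higher, and DCN, FAP and TTR were at 0 in at least 1 library. With shDDX18#1, FN1 alone made 51833 of the 1.0322e+05 CPM of the fibroblast and feeder list in H9 and 27157 of 35123 CPM in HES2. Of that list 2 of 25 genes, THY1 and S100A4, had a negative difference. POSTN stayed at 1.56, 1.61 and 0.835 CPM in HES2 with shLuc, shDDX18#1 and shDDX18#3. In bulk RNA fewer cells of a type and less RNA per cell cannot be told apart, and the part of these shifts in the results below was not tested.

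Knockdown lowered 15 of the 30 genes and raised none. The 15 were HMGCS1, ACAT2, FDPS, FDFT1, SQLE, LSS, INSIG1, SREBF1, SREBF2, ACACA, FASN, ELOVL6, SCD, FADS1 and FADS2, called by limma with the line as a block at an adjusted p under 0.05. Over all genes tested that call took 6.26% as lower and 9.6% as higher. The median difference of the 30 genes was -0.62, against -0.02 for all 17768 genes tested, on the scale of log2(CPM + 1) that all differences below use. In 20 of the 30 genes all 4 knockdown libraries lay below both shLuc libraries, where 20.9% of all genes did so. SC5D was the 1 gene in which all 4 lay above both, against 19.8% of all genes. In 22 of the 30 genes each knockdown library was below the shLuc library of its own line, a count whose share over all genes was not computed. In the authors' deposited table the false discovery rate was under 0.05 for 16 of the 30, the same 15 and MVD, all lower, against 9.42% of all genes as lower and 13.5% as higher. The count of 15 rested on both control libraries: without H9 shLuc only SREBF1 passed, and without HES2 shLuc none did by limma, in fits where the other shLuc library stands alone for its arm. It was 8 without HES2 shDDX18#1, 9 without HES2 shDDX18#3, 14 without H9 shDDX18#3 and 7 without a trend in the prior variance. Over all genes the 1113 called lower became 243, 488, 1604 and 342, in the same order. The calls over all genes also fell without either shLuc library. Without H9 shDDX18#1 15 were called, with MVD in and LSS out, and 1098 of all genes were called lower. HMGCS1, FDPS, FDFT1, SREBF1, ACACA, FASN and SCD passed under every alternative that kept the 6 libraries and without each knockdown library in turn. edgeR and DESeq2 called 16 and 15 of the 30 lower and none higher. Over the 17768 genes tested they called 1189 and 1047 lower and 1717 and 1814 higher. By limma 18 of the 30 had an unadjusted p under 0.05, none of them higher in the knockdown. The share of all genes under that unadjusted p was not computed.

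**Figure D1:**
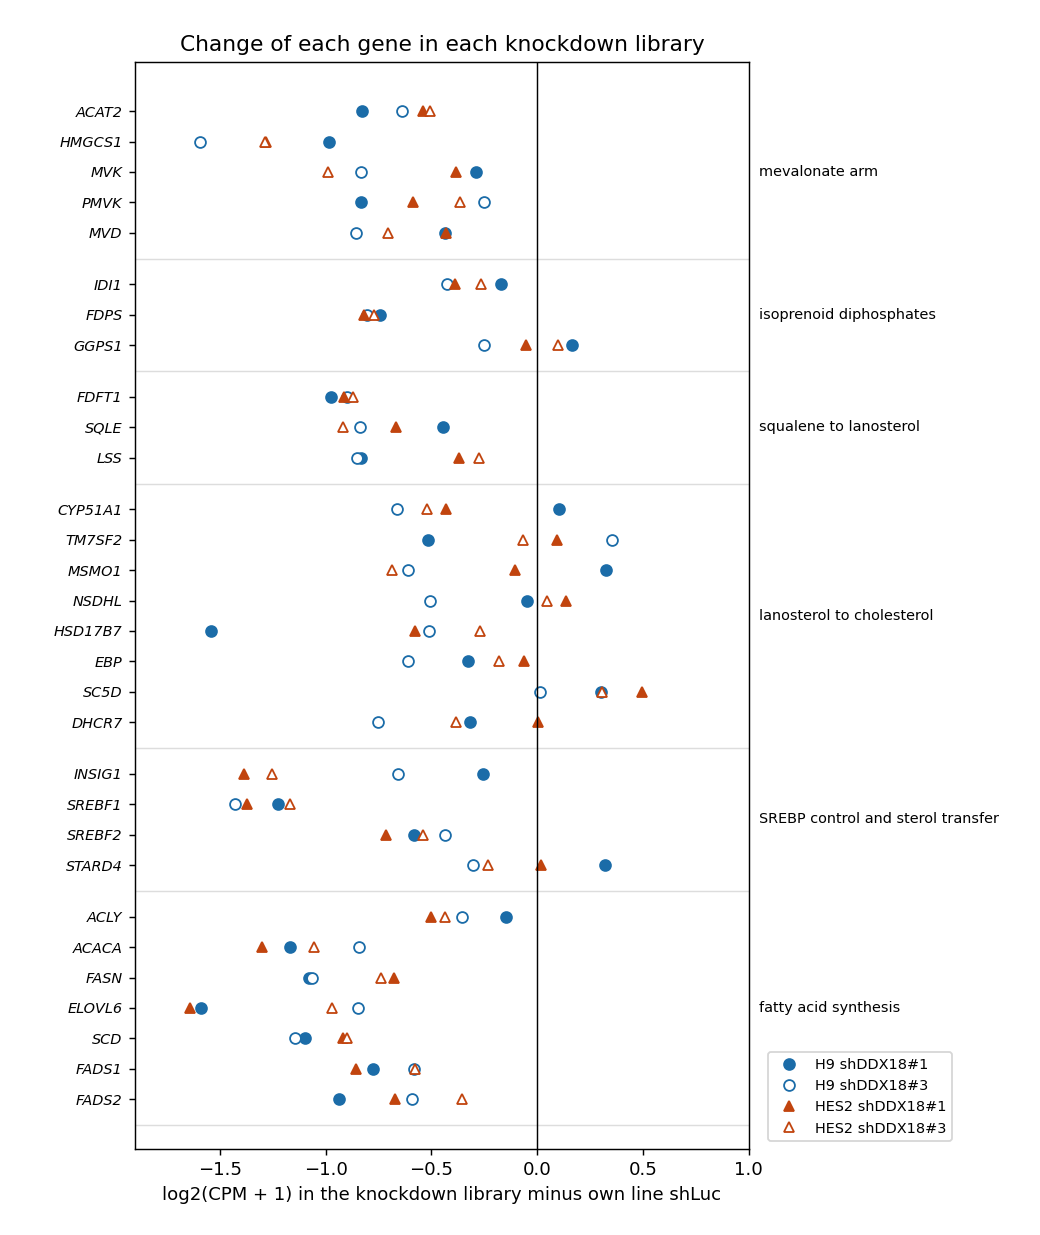
Each point is 1 knockdown library, as its log2(CPM + 1) minus that of the shLuc library of its own line (x axis), for the 30 genes grouped by role (y axis), with circles for H9, triangles for HES2, filled for shDDX18#1 and open for shDDX18#3. The fatty acid genes and HMGCS1, FDPS, FDFT1 and SREBF1 lie left of 0 in all 4 libraries. Of the 8 genes from lanosterol to cholesterol, EBP and HSD17B7 also do, SC5D lies right of 0 in all 4, and the others lie on both sides.

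In the mevalonate arm, HMGCS1 and ACAT2 fell and MVK, PMVK and MVD did not pass, with a median of -0.62 over the 5 genes. HMGCS1, the synthase that makes HMG-CoA, was at 449, 227 and 148 CPM in H9 and at 456, 187 and 186 CPM in HES2. All 4 knockdown libraries were at 33.0% to 50.5% of their line's shLuc, well apart from the controls. HMGCS1 fell from 452 ± 4.63 CPM (SD, n = 2) to 187 ± 32.1 CPM (SD, n = 4), a difference of -1.29 (SE 0.18, limma adjusted p = 0.00539). ACAT2, the thiolase that makes acetoacetyl-CoA in the cytosol, was at 191, 107 and 122 CPM in H9 and 174, 119 and 122 CPM in HES2. The groups did not overlap, and the difference was -0.63 (SE 0.14, limma adjusted p = 0.0228). Without H9 shLuc the limma adjusted p was 0.0653 for HMGCS1 and 0.23 for ACAT2, and without HES2 shLuc 0.0838 and 0.126. ACAT2 was also lost without HES2 shDDX18#1 and without HES2 shDDX18#3. ACAT2 shares 33.9% of its exon length with another gene model, and the library kit keeps no strand.

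The kinases and the decarboxylase that follow did not pass. MVD, which turns mevalonate diphosphate into isopentenyl diphosphate, was at 80.6, 59.2 and 44.1 CPM in H9 and 85.8, 63.4 and 52.4 CPM in HES2. Its groups did not overlap, and it lay just past the threshold at -0.61 (SE 0.17, limma adjusted p = 0.0504). MVD passed with edgeR (adjusted p = 0.0474), with scaling to the total of reads (0.0423) and with a filter at 5 CPM (0.0462). MVK, mevalonate kinase, was at 29.6, 24.1 and 16.2 CPM in H9 and 33.1, 25.1 and 16.2 CPM in HES2. Every knockdown library was below both controls, and the difference was -0.62 (SE 0.25, limma adjusted p = 0.124). PMVK, phosphomevalonate kinase, had groups that overlapped, at 17.9 to 24.1 CPM with shLuc and 11.6 to 20.1 CPM with knockdown (-0.51, SE 0.24, limma adjusted p = 0.181).

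Of the isoprenoid enzymes FDPS fell and IDI1 and GGPS1 did not pass. FDPS, farnesyl diphosphate synthase, was at 217, 129 and 124 CPM in H9 and 232, 131 and 136 CPM in HES2. All 4 knockdown libraries were within 56.5% to 59.6% of their own control, a narrow band. The level went from 225 ± 10.9 CPM (SD, n = 2) to 130.1 ± 4.99 CPM (SD, n = 4), a difference of -0.78 (SE 0.13, limma adjusted p = 0.00894, which was 0.0906 without H9 shLuc and 0.106 without HES2 shLuc). FDPS has 8 annotated pseudogene copies and shares 18.6% of its exon length with another model, so its reads are less certainly its own. IDI1, the isopentenyl diphosphate isomerase, was at 102 and 103 CPM with shLuc and 75.9 to 90.7 CPM with knockdown. Its groups did not overlap either, and the difference of -0.31 (SE 0.14) had a limma adjusted p of 0.173. GGPS1, which makes geranylgeranyl diphosphate, was at 33.8 and 35.1 CPM with shLuc and 28.2 to 38.0 CPM with knockdown. The difference of GGPS1 was -0.01 (SE 0.18, limma adjusted p = 0.974), and its sign changed with the scaling. GGPS1 shares 37.3% of its exon length with another gene model, so its reads are also less certainly its own.

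All 3 enzymes from farnesyl diphosphate to lanosterol fell. FDFT1, squalene synthase, was at 485, 246 and 259.7 CPM in H9 and 461, 244 and 252 CPM in HES2. The knockdown libraries lay within 50.7% to 54.6% of their own control. FDFT1 went from 473 ± 16.5 CPM (SD, n = 2) to 250.4 ± 6.99 CPM (SD, n = 4), a difference of -0.92 (SE 0.13, limma adjusted p = 0.00539). SQLE, squalene epoxidase, was at 239, 176 and 133 CPM in H9 and 240.1, 151 and 126 CPM in HES2. In both lines the library with shDDX18#3 was the lower, and the difference from shLuc over all 4 was -0.72 (SE 0.16, limma adjusted p = 0.0249). LSS, which closes the rings to lanosterol, was at 259, 145 and 143 CPM in H9 and 189, 146 and 156 CPM in HES2. The knockdown libraries of LSS sat close together and the controls did not, so its difference of -0.58 (SE 0.16, limma adjusted p = 0.0413) was -0.84 without HES2 shLuc and -0.32 without H9 shLuc. LSS lost the call when any of the 6 libraries was left out, at limma adjusted p of up to 0.419, and without the line as a block (0.0652). With the H9 control left out the limma adjusted p was 0.0702 for FDFT1 and 0.153 for SQLE, and with the HES2 control left out 0.08 and 0.199. SQLE was also lost without HES2 shDDX18#1 and without HES2 shDDX18#3.

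From lanosterol to cholesterol none of the 8 enzymes passed over the 4 knockdown libraries by limma, edgeR or DESeq2. Each tool had 0 at an unadjusted p under 0.05, and the median was -0.28. HSD17B7, MSMO1 and DHCR7 passed by limma with a single hairpin, as given below. DHCR7, which reduces the last precursor to cholesterol, was at 205, 165 and 122 CPM in H9 and 209, 209.8 and 160.4 CPM in HES2. HES2 shDDX18#1 stood beside the controls and the other 3 knockdown libraries stood below them (-0.36, SE 0.19, limma adjusted p = 0.214). MSMO1, the methyl sterol oxidase, was at 96.1, 120.5 and 62.6 CPM in H9 and 101, 93.6 and 62.4 CPM in HES2. Both libraries with shDDX18#3 were low in MSMO1, while shDDX18#1 stood at 125% of its control in H9 and at 92.9% in HES2. Over the 4 knockdown libraries the difference of MSMO1 was -0.27 (SE 0.27, limma adjusted p = 0.527).

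SC5D, a sterol desaturase, was the 1 member above both controls in every knockdown library. It was at 133, 164 and 134 CPM in H9 and 123, 174 and 153 CPM in HES2, a difference of 0.28 (SE 0.15, limma adjusted p = 0.239). The H9 library with shDDX18#3 stood at 101% of H9 shLuc and the other 3 knockdown libraries at 123% to 141% of their own control. EBP, the sterol isomerase, was at 54.8 and 65.3 CPM with shLuc and 42.5 to 52.5 CPM with knockdown, without overlap (-0.30, SE 0.17, limma adjusted p = 0.258). NSDHL, a sterol dehydrogenase, was at 46.5, 44.9 and 32.4 CPM in H9 and 40.9, 45.0 and 42.3 CPM in HES2. NSDHL was below control in both H9 knockdown libraries and above it in both of HES2 (-0.09 over all, SE 0.19, limma adjusted p = 0.765). TM7SF2, a sterol reductase, ranged from 35.9 to 67.3 CPM with knockdown around controls of 51.8 and 63.0 CPM (-0.03, SE 0.24, limma adjusted p = 0.937).

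HSD17B7 and CYP51A1 had the lowest levels of this arm. HSD17B7, a keto-reductase of the pathway, was at 30.5, 9.80 and 21.1 CPM in H9 and 16.3, 10.6 and 13.4 CPM in HES2. The H9 control stood well above the HES2 control, and the groups overlapped, with a difference of -0.72 (SE 0.32, limma adjusted p = 0.16). HSD17B7 has pseudogene copies that could share its reads. CYP51A1, the lanosterol demethylase, was at 11.4, 12.3 and 6.81 CPM in H9 and 11.6, 8.37 and 7.80 CPM in HES2 (-0.38, SE 0.29, limma adjusted p = 0.396). Another gene model on its strand covers 79.4% of its exon length, so the value listed for CYP51A1 may be only part of its reads.

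**Figure D2:**
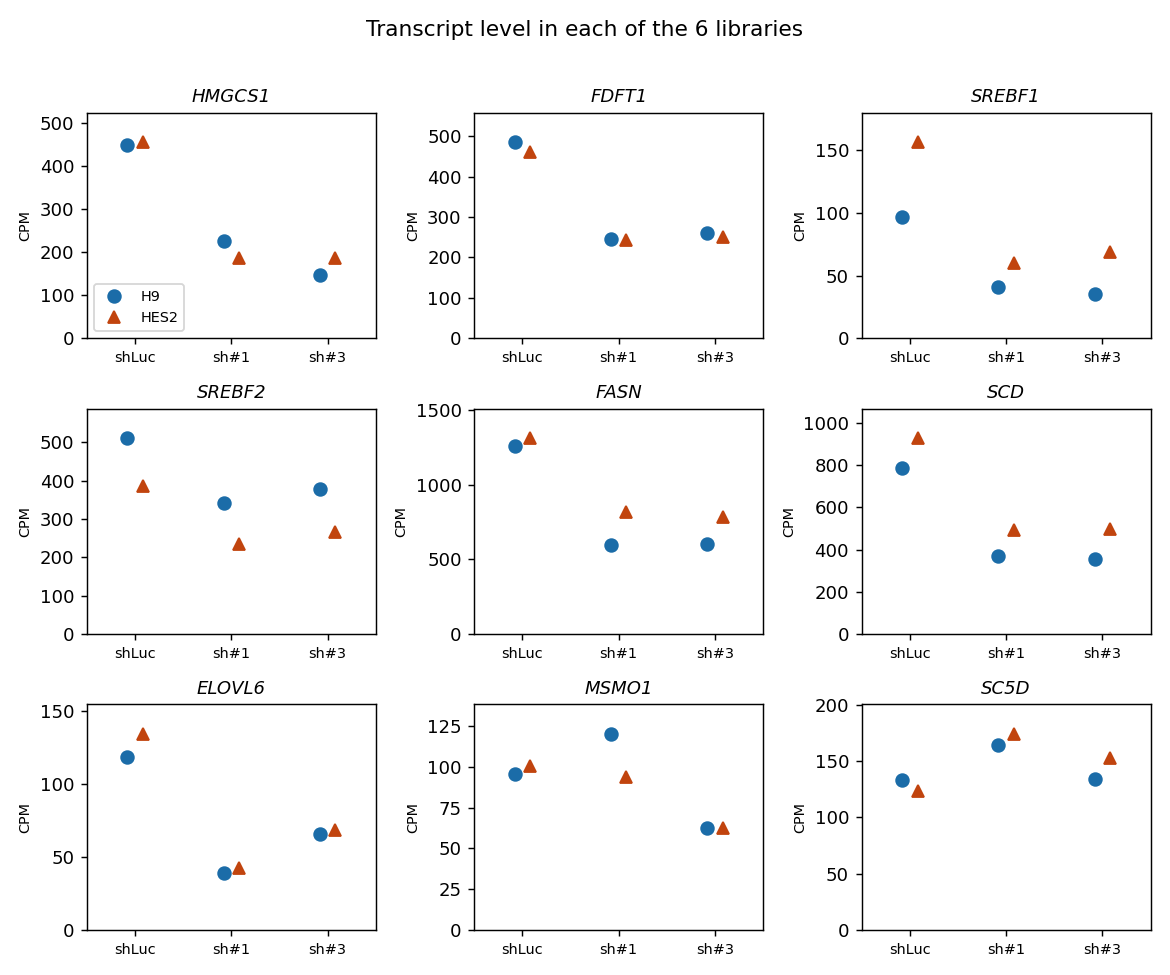
Level in CPM (y axis, from 0) in each library by hairpin (x axis), with circles for H9 and triangles for HES2, 1 panel for each of 9 of the genes. Both shLuc points of HMGCS1, FDFT1, SREBF1, SREBF2, FASN, SCD and ELOVL6 lie above all 4 knockdown points, MSMO1 is lowest with shDDX18#3, and SC5D has both shLuc points below the other 4.

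Among the regulators SREBF1, SREBF2 and INSIG1 fell and STARD4 did not pass. SREBF1 was at 96.9, 40.8 and 35.3 CPM in H9 and at 156, 59.9 and 69.1 CPM in HES2. Each knockdown library held 36.5% to 44.1% of its own control. The difference of SREBF1 was -1.30 (SE 0.15, limma adjusted p = 0.00294), the largest fall and the smallest adjusted p of the 30 genes, and it was -1.27 without H9 shLuc (adjusted p = 0.0419) and -1.33 without HES2 shLuc (0.0558). SREBF2 was at 511, 341 and 378 CPM in H9 and 387, 235 and 266 CPM in HES2. The highest knockdown library, H9 shDDX18#3, lay just under the control of HES2, so the groups did not overlap, and the difference was -0.57 (SE 0.14, limma adjusted p = 0.0319).

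INSIG1, which holds the SREBPs in the endoplasmic reticulum, was at 62.6, 52.3 and 39.2 CPM in H9 and 88.3, 33.1 and 36.5 CPM in HES2. The fall was deeper in HES2, where 37.5% and 41.3% were left, than in H9, where 83.5% and 62.7% were left. INSIG1 differed by -0.89 (SE 0.23, limma adjusted p = 0.0362), by -1.32 without H9 shLuc (adjusted p = 0.0524) and by -0.46 without HES2 shLuc (0.355). STARD4, a carrier of sterol between membranes, was at 35.4, 44.5 and 28.5 CPM in H9 and 49.2, 49.9 and 41.8 CPM in HES2. With shDDX18#1 STARD4 was at or above its own control and with shDDX18#3 below it (-0.05 over all, SE 0.21, limma adjusted p = 0.894). Neither SREBF2 nor INSIG1 passed without the line as a block or without either HES2 knockdown library, and SREBF2 did not pass with quantile scaling (limma adjusted p = 0.0571), without H9 shLuc (limma adjusted p = 0.177) or HES2 shLuc (0.227).

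Of the 7 enzymes of fatty acid synthesis and desaturation 6 fell, with a median of -0.89, and ACLY did not pass. ACLY, which splits citrate to give acetyl-CoA, was at 572, 517 and 448 CPM in H9 and 574, 405 and 425 CPM in HES2. All 4 knockdown libraries of ACLY were lower than the controls, by a difference of -0.36 (SE 0.15, limma adjusted p = 0.129). ACACA, the acetyl-CoA carboxylase that makes malonyl-CoA, was at 235, 104 and 131 CPM in H9 and 234, 94.6 and 112 CPM in HES2. The controls of the lines were nearly equal and the knockdown libraries held 40.4% to 55.7% of them, a difference of -1.09 (SE 0.16, limma adjusted p = 0.00577). FASN, the synthase that makes palmitate, was at 1258, 595 and 601 CPM in H9 and 1312, 819.6 and 787 CPM in HES2. In FASN both knockdown libraries of H9 were below both of HES2, and the difference was -0.89 (SE 0.16, limma adjusted p = 0.0121).

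ELOVL6, which lengthens palmitate to stearate, was at 119, 38.8 and 65.5 CPM in H9 and 135, 42.5 and 68.2 CPM in HES2. In both lines shDDX18#1 was the lower, at 32.7% and 31.6% of control against 55.1% and 50.7%, and the difference over all was -1.26 (SE 0.25, limma adjusted p = 0.0176). SCD, the desaturase that makes oleate, was at 788, 368 and 356 CPM in H9 and 928, 491 and 497 CPM in HES2. SCD went from 858 ± 99.1 CPM (SD, n = 2) to 428 ± 76.3 CPM (SD, n = 4), a difference of -1.01 (SE 0.14, limma adjusted p = 0.00498). The knockdown libraries of SCD held 45.2% to 53.5% of their controls with either hairpin in either line.

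FADS1 and FADS2 desaturate polyunsaturated fatty acids and lie side by side, with 4.79% and 4.44% of their exon lengths shared with another model. FADS1 was at 287, 167 and 191 CPM in H9 and 353, 195 and 236 CPM in HES2 (-0.70, SE 0.15, limma adjusted p = 0.0195). FADS2 was at 620.2, 323 and 412 CPM in H9 and 655, 411 and 512 CPM in HES2 (-0.64, SE 0.17, limma adjusted p = 0.0418). In both genes and both lines the library with shDDX18#1 was the lowest and the groups did not overlap. Without H9 shLuc the limma adjusted p of the 6 fatty acid genes was 0.0533 for ACACA, 0.0758 for SCD, 0.142 for ELOVL6, 0.155 for FADS1, 0.159 for FASN and 0.332 for FADS2. Without HES2 shLuc it was 0.0611 for SCD, 0.079 for FASN, 0.0938 for ACACA, 0.156 for ELOVL6, 0.16 for FADS1 and 0.165 for FADS2. FADS1 and FADS2 were also lost without the line as a block and without HES2 shDDX18#1, and FADS2 without HES2 shDDX18#3 and with quantile scaling (limma adjusted p = 0.0597).

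**Figure D3:**
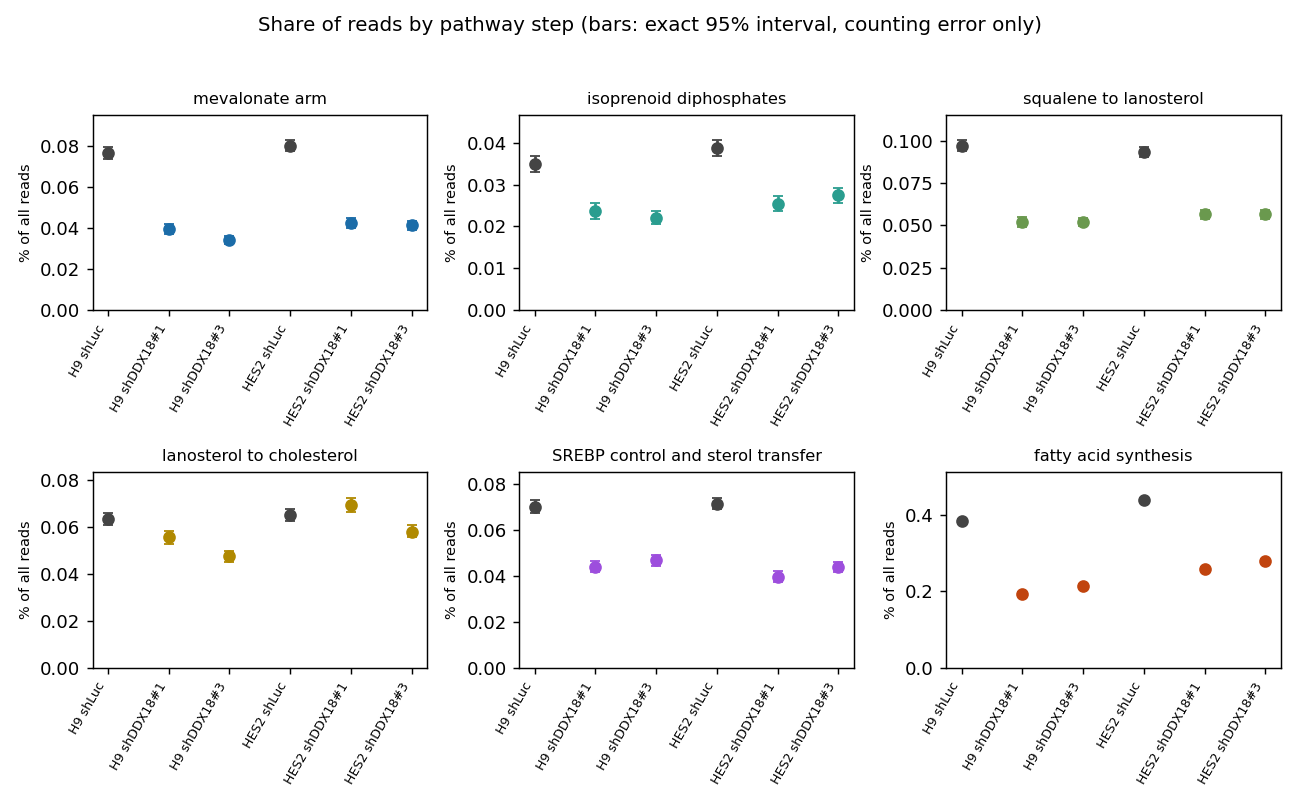
Share of all reads in percent (y axis, from 0) taken by the genes of each role in each library (x axis), 1 panel per role, with shLuc in grey and bars for the exact 95% binomial interval. Fatty acid synthesis goes from 0.384% and 0.439% with shLuc to between 0.194% and 0.279% with knockdown. The genes from lanosterol to cholesterol go from 0.0633% and 0.0650% to between 0.0473% and 0.0693%, above control only in HES2 shDDX18#1.

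As a share of the library, the 30 genes took 0.726% of reads in H9 shLuc (exact 95% binomial interval 0.718% to 0.735%), and 0.408% and 0.416% with the DDX18 hairpins. In HES2 they took 0.788% (0.779% to 0.796%), 0.491% and 0.506%. The intervals cover counting error only. The fatty acid genes alone took 0.384%, 0.194% and 0.214% of reads in H9 cells and 0.439%, 0.258% and 0.279% in HES2 cells. The 8 genes from lanosterol to cholesterol took 0.0633% of reads in H9 shLuc and 0.0650% in HES2 shLuc, and 0.0473% to 0.0693% with knockdown. In HES2 shDDX18#1 their share, 0.0693%, was above that of its control. The fibroblast and feeder markers took 3.68% of that library, and a link between these shares was not tested.

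Per kilobase of exon the highest levels with shLuc were those of SCD (160.0 CPM per kb), FASN (137), ACLY (109.9), HMGCS1 (96.2) and FDFT1 (90.9). The lowest were CYP51A1 (3.21), MVK (4.84) and HSD17B7 (4.89). The 5 highest held 4 of the genes that fell. None of the 3 lowest passed by limma over all 4 knockdown libraries. By hairpin, MVK passed with shDDX18#3 (limma adjusted p = 0.0265) and HSD17B7 with shDDX18#1 (0.0274).

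**Figure D4:**
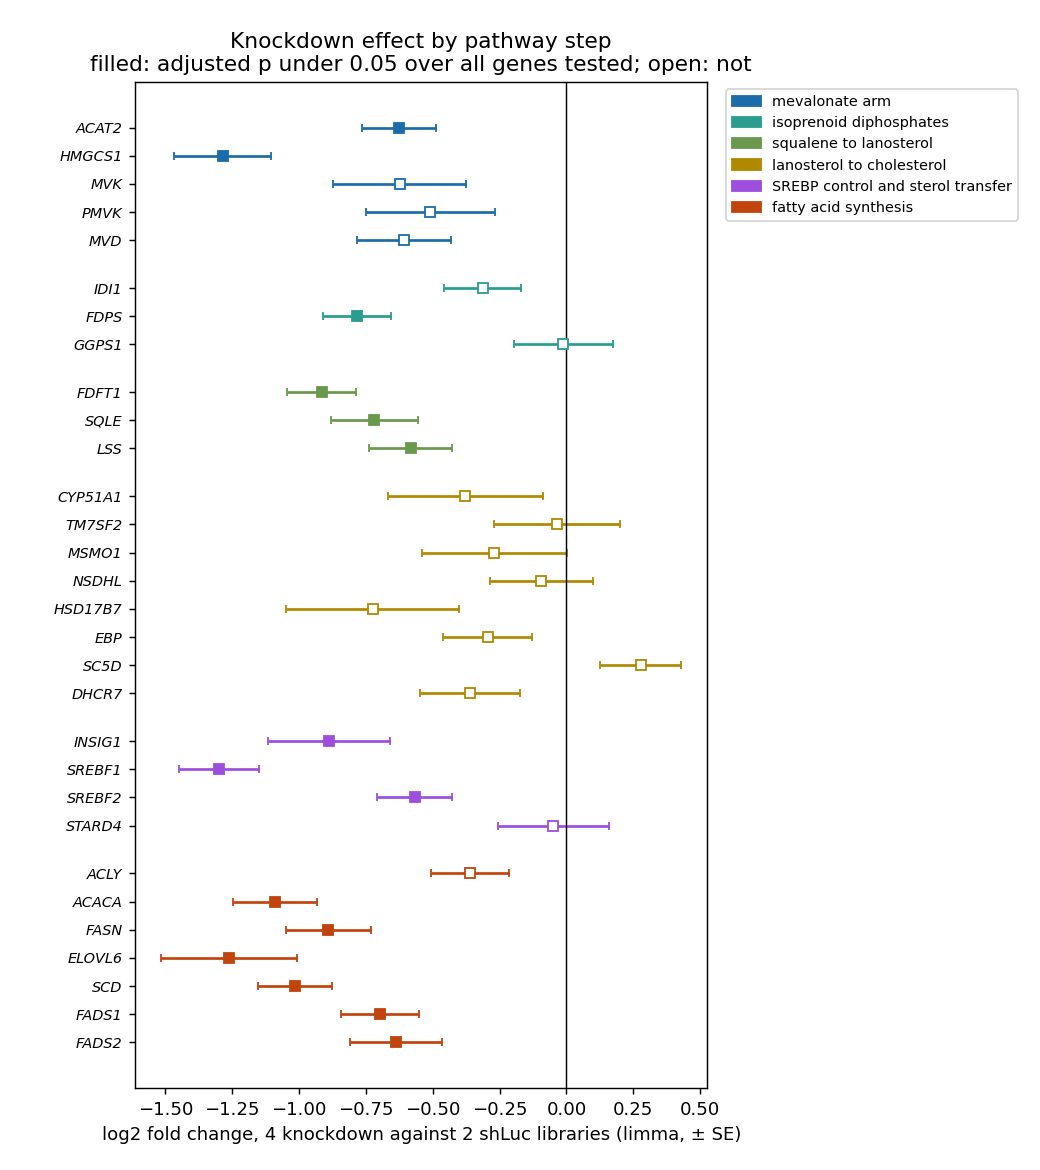
Difference between the 4 knockdown and 2 shLuc libraries on the log2(CPM + 1) scale (x axis) for the 30 genes (y axis), with bars of 1 SE, colours for role and filled squares for an adjusted p under 0.05. The 15 filled squares lie between -1.30 and -0.57, and the 8 genes from lanosterol to cholesterol are all open.

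The hairpins were compared with shLuc apart, against the same 2 shLuc libraries, so these comparisons are not independent. shDDX18#1 lowered 16 of the 30 genes and raised none, where 13.4% of all genes were called lower and 14.4% higher. shDDX18#3 lowered 17 and raised none, where 3.69% were called lower and 6.96% higher. Called with both were 13 genes: HMGCS1, ACAT2, FDPS, FDFT1, SQLE, INSIG1, SREBF1, SREBF2, ACACA, FASN, ELOVL6, SCD and FADS1. The 17 with shDDX18#3 were 10 with DESeq2 and 0 by limma without the line as a block, without the trend, or without either H9 shDDX18#3 or HES2 shDDX18#3. The 16 with shDDX18#1 were 9 without the block and 7 without the trend.

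LSS, FADS2 and HSD17B7 passed with shDDX18#1 and not with shDDX18#3, and MVK, MVD, MSMO1 and DHCR7 the other way round. HSD17B7 differed by -1.06 with shDDX18#1 (limma adjusted p = 0.0274) and -0.39 with shDDX18#3 (0.433). MVK differed by -0.34 (limma adjusted p = 0.251) and -0.91 (0.0265), MVD by -0.43 (0.0652) and -0.78 (0.0166), and DHCR7 by -0.16 (0.462) and -0.57 (0.0437), in the same order. LSS differed by -0.60 (limma adjusted p = 0.0286) and -0.56 (0.0682), so its hairpins lie close to each other on either side of the threshold. FADS2 differed by -0.80 (limma adjusted p = 0.0038) and -0.47 (0.0634), so shDDX18#3 missed the threshold with the smaller difference.

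Tested against each other, the hairpins differed in none of the 30 genes by limma, nor in any gene of the table (0.0%). By limma 8 of the 30 had an unadjusted p under 0.05, and the share of all genes under it was not computed. edgeR and DESeq2 called none of the 30 either, with 6 and 2 at an unadjusted p under 0.05. Over all genes tested edgeR called 21 lower and 10 higher with shDDX18#3, and DESeq2 76 and 37. A p that misses the threshold does not show that the hairpins act alike. The 8 by limma were ELOVL6, MSMO1, MVK, DHCR7, FADS2, STARD4, SQLE and HSD17B7. ELOVL6 was higher with shDDX18#3 by 0.71 (SE 0.15, limma adjusted p = 0.13). MSMO1 was lower with it by -0.76 (SE 0.16, limma adjusted p = 0.133), from 0.11 with shDDX18#1 and -0.65 with shDDX18#3 against shLuc. The median of shDDX18#3 minus shDDX18#1 was 0.24 over the fatty acid genes and -0.26 over the genes from lanosterol to cholesterol, while the level of DDX18 itself was higher with shDDX18#3 by 0.93 (SE 0.22, limma adjusted p = 0.145).

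Between the lines, the effect of knockdown differed in none of the 30 genes and in no gene of the table (0.0%) by limma, and none of the 30 had an unadjusted p under 0.05. edgeR and DESeq2 called none of the 30, with 1 and 0 at an unadjusted p under 0.05. Over all genes tested edgeR called 0, and DESeq2 called 4 with a lower and 10 with a higher effect in HES2. INSIG1 came nearest, with an effect in HES2 minus that in H9 of -0.86 (SE 0.37, limma adjusted p = 0.9998). LSS went the other way by 0.52 (SE 0.28), as its H9 control was the higher. With 6 libraries the SE of these differences was as large as many of the effects, and a p that misses the threshold does not show that the lines respond alike.

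The level of 2 of the 30 genes differed between the lines with the hairpin as a block, 1 lower in HES2 and 1 higher. Of all genes 3.98% were lower in HES2 and 1.44% higher, so 1 of 30 in each direction is near the share of all genes. SREBF1 was higher in HES2 in every arm, by 0.72 (SE 0.13, limma adjusted p = 0.019). SREBF2 was lower in HES2 in every arm, by -0.48 (SE 0.10, limma adjusted p = 0.0365). Both calls were lost without the hairpin as a block, without the trend and without H9 shDDX18#3 or HES2 shDDX18#3, and that of SREBF2 also without H9 shDDX18#1 or HES2 shDDX18#1, with quantile or total scaling and with DESeq2 (adjusted p = 0.051). SCD, FADS1 and FASN were higher in HES2 by 0.38, 0.27 and 0.30 and did not pass (limma adjusted p = 0.092, 0.179 and 0.206).

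The neighbouring genes of these pathways were called in both directions. Of 9 genes that process or turn over the SREBPs none was lower by limma, edgeR or DESeq2, with 2 at an unadjusted p under 0.05 in each, and 2 were higher by each, with a median of 0.0054: MBTPS2, the site-2 protease that frees the SREBPs, by 0.78 (limma adjusted p = 0.0336), and C12orf49, a factor needed for SREBP cleavage, by 0.70 (0.0401). Both calls were lost without the line as a block (limma adjusted p = 0.0501 and 0.0719), without the trend (0.0502 and 0.106) and without HES2 shDDX18#1 or HES2 shDDX18#3. MBTPS2 was also lost with quantile scaling (limma adjusted p = 0.0509) and C12orf49 without H9 shDDX18#1 (0.0533). Of 10 genes of sterol uptake and trafficking 3 were lower and 2 higher. LRP8, a lipoprotein receptor, fell from 127 ± 13.9 CPM (SD, n = 2) to 58.2 ± 8.27 CPM (SD, n = 4), and TMEM97, a sterol-regulated membrane protein, differed by -0.92 (limma adjusted p = 0.0331). The call of TMEM97 was lost without the block (limma adjusted p = 0.0535), without the trend (0.0897) and without HES2 shDDX18#1 (0.0914) or HES2 shDDX18#3 (0.0551). NPC1, which moves cholesterol out of lysosomes, rose by 1.06 (limma adjusted p = 0.00735).

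ABCA1, the exporter of cholesterol that LXR switches on, was at 19.7, 96.8 and 69.4 CPM in H9 and 19.4, 85.3 and 61.3 CPM in HES2. It rose by 1.92 (SE 0.21, limma adjusted p = 0.00261) and was the 1 of 6 LXR receptors and targets to pass. ABCG1, another such exporter, was at 1.67 ± 0.798 CPM (SD, n = 2) and 4.29 ± 2.97 CPM (SD, n = 4) and did not pass (limma adjusted p = 0.26). Among 10 genes that use isoprenoids RABGGTA, a subunit of a Rab prenyltransferase, rose by 1.01 (limma adjusted p = 0.0121) and no other passed.

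Among 20 other genes of fatty acid synthesis, elongation and activation 4 were lower and 5 higher, with a median of -0.08. MID1IP1, an activator of acetyl-CoA carboxylase, fell with ACACA, from 179 ± 18.9 CPM (SD, n = 2) to 86.3 ± 7.87 CPM (SD, n = 4). ME1, the malic enzyme that supplies NADPH, rose from 10.9 ± 1.46 to 33.3 ± 1.59 CPM (limma adjusted p = 0.00344). None of 5 genes of mitochondrial fatty acid synthesis passed by limma, edgeR or DESeq2, with 1, 1 and 0 at an unadjusted p under 0.05, and 1 of 16 of fatty acid oxidation was lower (ECI1, -0.61, limma adjusted p = 0.0326). ECI1 was lost without the trend (limma adjusted p = 0.0841) and without HES2 shDDX18#1 (0.0932) or HES2 shDDX18#3 (0.0951). Of 17 genes of glycerolipid synthesis 1 was higher, the acyltransferase AGPAT3, by 1.62 (limma adjusted p = 0.0045). Of the 12 genes called among the 3 of smallest p per list, ABCA1, AGPAT3 and ME1 passed by limma without H9 shLuc, and ABCA1 alone without HES2 shLuc.

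**Figure D5:**
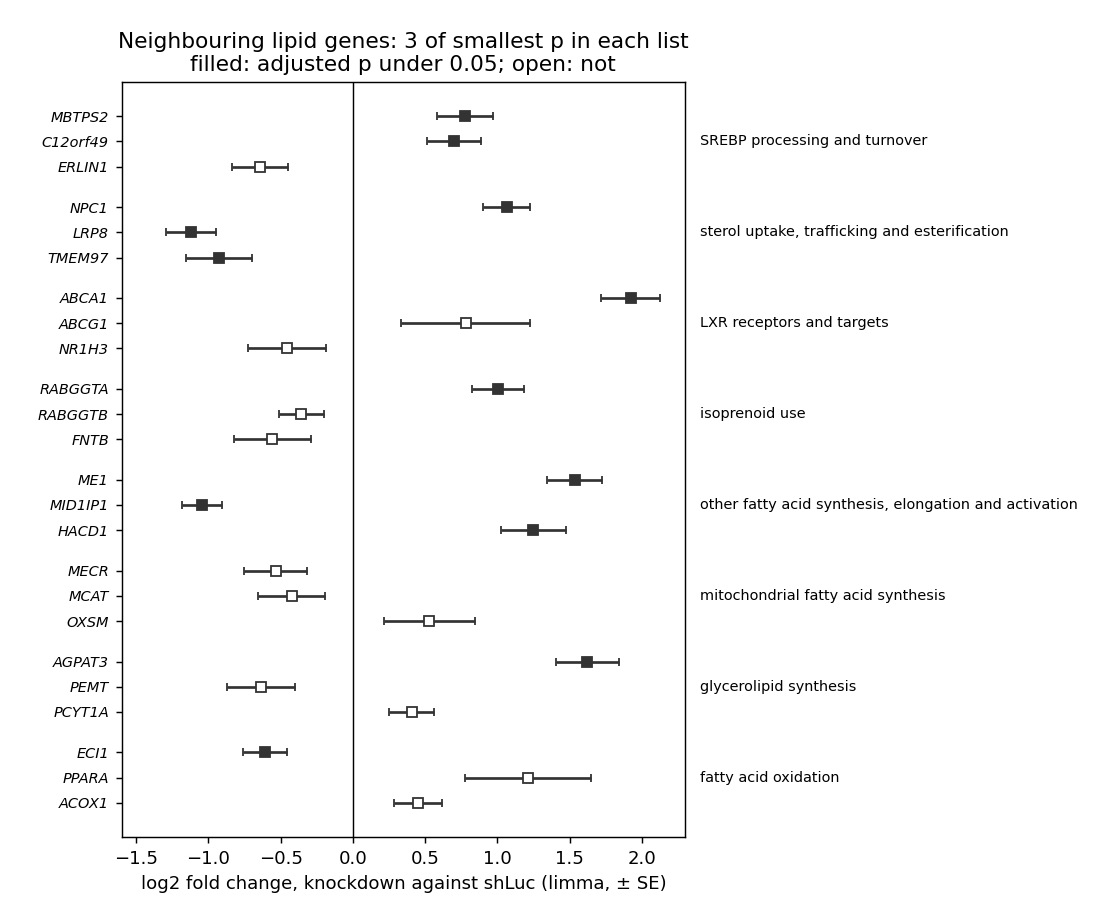
Difference between knockdown and shLuc on the log2(CPM + 1) scale (x axis), with bars of 1 SE, for the 3 genes of smallest p in each of the 8 neighbouring lists (y axis), filled at an adjusted p under 0.05. Filled squares lie on both sides of 0, from LRP8 at -1.12 to ABCA1 at 1.92.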

How the data were processed

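Libraries were made with the TruSeq RNA kit, which keeps no strand. Per the submitters' processing notes the build was hg19 and the tools were edgeR 3.26.8, HTSeq 0.11.2, SAMtools 1.9 and Bowtie2 2.3.4.3, with no part given to each. The table the authors deposited holds, for 17929 genes, the normalized signal of the 6 libraries and, for the knockdown, a p-value with its false discovery rate, a likelihood ratio (score) and log2 fold changes. The design behind the authors' p-value is not given in the sources used here, and their score was not used here.

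Tested on the values, the deposited signal is reads per 1e+06 of a scaled library size (CPM): 100% of values came out as whole reads within a tolerance of 0.001. All genes were fitted on log2(CPM + 1) with limma 3.58.1 (limma-trend, R 4.3.3) and Benjamini-Hochberg adjustment over the 17768 genes with at least 1 CPM in 2 libraries, called at an adjusted p under 0.05. The line was a block, since replicate numbers stand for the lines. The deviations of H9 from the arm means correlated between arms at r = 0.363, 0.454 and 0.654 over genes. Intervals of read shares are exact binomial at 95%.

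Alternatives were other pseudocounts, filters, scalings and priors, no block, each library left out, and DESeq2 1.42.0 and edgeR 4.0.16 on whole counts of reads. On these edgeR called 1189 genes lower and 1717 higher, where limma called 1113 and 1706. The limma code was tested on simulated data.

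The 30 genes and the other lists were chosen with earlier results of these data known. All 30 genes are named, with DDX18 and, from each other list, genes among the 3 of smallest p. Promoter windows are the first listed per gene in a RefSeq table on GRCh38.p14, and exon lengths and overlaps come from a GENCODE annotation on GRCh38. An item left out of the lists is not reported here.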

Additional observations from a re-analysis of the deposited data

Results flagged for a closer look

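NSDHL stood on opposite sides of control in the lines, with a difference of mean log2 changes of -0.37 (H9 minus HES2). With shDDX18#1 and shDDX18#3 it was at 96.6% and 69.7% of control in H9 and at 110% and 103% in HES2, so some libraries lay close to control. The interaction term for NSDHL did not pass (limma adjusted p = 0.9998).

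STARD4 stood on opposite sides of control with the hairpins, with a difference of 0.437 (shDDX18#1 minus shDDX18#3). With shDDX18#1 it was at 126% of control in H9 and 101%, close to control, in HES2. With shDDX18#3 it was at 80.5% and 84.9%. The test of the hairpins against each other did not pass for STARD4 (limma adjusted p = 0.325).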

How the results depend on the processing

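The 15 genes called lower in the knockdown were 7 without the trend, 10 without the pairing by line (no replicate block) and 0 to 15 with each library left out, and 13 to 16 under the other alternatives. Of all genes, the 1113 called lower were 342 without the trend, 409 without the pairing and 7 to 1604 with a library left out. The 1706 called higher were 886, 790 and 185 to 1986. The 16 lower with shDDX18#1 were 7 without the trend, 9 without the pairing and 12 to 14 with a library left out, with 0 to 1 higher (1 without H9 shLuc). The 17 lower with shDDX18#3 were 0 without the trend, 0 without the pairing, 10 with DESeq2 and 0 to 16 with a library left out. For the hairpins against each other the counts with a library left out were 0 to 1 lower and 0 to 1 higher, 1 each without either shLuc. The 1 gene lower in HES2 was 0 with quantile normalization, scaling to the total, no trend, no pairing and DESeq2, and 0 to 1 with a library left out. The 1 gene higher in HES2 was 2 with quantile normalization, 2 with scaling to the total, 0 without the trend, 0 without the pairing and 0 to 3 with a library left out. The median of the 30 genes lay between -0.62 and -0.52 with a library left out.

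The sign changed for 4 genes that were not called. GGPS1 was at 0.0081 with median-of-ratios scaling and 0.017 with DESeq2, and -0.096 to 0.083 with a library left out. TM7SF2 was at 0.0060 with edgeR and 0.021 with DESeq2, and -0.21 to 0.16 with a library left out. NSDHL and STARD4 ranged from -0.28 to 0.092 and from -0.19 to 0.077 with a library left out. No called gene changed sign in 1620 values for 90 single-gene results, of which 1357 kept their side of the threshold, 242 lost a call and 7 gained one. The alternatives for the neighbouring genes were chosen after seeing the data. The effect of knockdown between lines had no fit without the pairing or without a shLuc library. Each shLuc arm holds 2 libraries, so leaving out 1 assumes that the other varies like the knockdown libraries. The cause of the other shifts was not tested. The genes of lowest mean CPM with shLuc were CYP51A1 (11.5), PMVK (21.0) and HSD17B7 (23.4). They rest on few reads, as 1 read is worth 0.224 to 0.408 CPM.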
